A study of Mus musculus with 49 samples.

Results

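The 9 protein-coding genes used here as markers of the mouse 2-cell stage, Zfp352, Eif4e3, Tcstv1, Tcstv3, Tmem92, Sp110, Arg2, Spz1 and Ddit4l, were followed in single late 2-cell embryos together with MT2_Mm. They were taken by symbol from the 54838 genes of the tables, and MT2_Mm is 1 of 1343 transposable element (TE) families. The labels give the genotype F1(C57BL/6JxCBA/H), and per the methods of the study F1 females were mated with F1 males. Trim-Away was used to deplete a transcription factor, with IgG instead of its antibody in CONTROL embryos. In this method, an antibody injected into the zygote is followed 4 h later by mRNA for mCherry-Trim21. Trim21 is a ubiquitin ligase that takes antibody-bound protein to degradation. The 4 groups received an antibody against TBP (TBP LOF, loss of function), mouse IgG (the CONTROL of TBP LOF), an antibody against FOXJ3 (FOXJ3 LOF) or rabbit IgG (the CONTROL of FOXJ3 LOF), and every embryo of every group received the Trim21 mRNA. Each embryo was collected 48 h after hCG and made into 1 library, in which reads from the 5′ ends of transcripts were counted.

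Of 49 embryos, 47 passed the study's quality limits, namely 9 with the antibody against TBP and 9 with its mouse IgG, and 16 with the antibody against FOXJ3 and 13 with its rabbit IgG. The kept libraries held between 1103569 and 5434808 reads. The FOXJ3 embryos were made into libraries in 2 batches, the first with 9 LOF against 7 CONTROL embryos, the second with 7 against 6. Per the labels, the TBP embryos stem from 3 biological replicates that were processed together, without a record of which embryo belongs to which. The methods of the study give at least 3 independent experiments for the embryos of all groups. Beyond the 2 library batches, FOXJ3 embryos could not be assigned to them here either. Reads of Tbp itself were lower in TBP LOF embryos, with a log2 fold change of −2.14 ± 0.37 (SE, 9 against 9 embryos; adjusted p = 5.26e-06), whereas those of Foxj3 gave 0.28 ± 0.13 (16 against 13; adjusted p = 0.864). These are mRNA counts and do not measure the depletion of either protein. As each library is a whole embryo, fewer cells and less RNA per cell cannot be told apart.

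In the mouse, the embryo's own genome is switched on mainly at the 2-cell stage. MT2_Mm is the long terminal repeat of the endogenous retrovirus MERVL, whose copies are transcribed at this stage and can serve as promoters of neighbouring genes. TBP is the TATA-binding protein, which recruits RNA polymerase to promoters, and FOXJ3 is a forkhead transcription factor. Among the genes, Tcstv1 and Tcstv3 belong to a family of 2-cell-stage genes clustered on chromosome 13, and Zfp352 encodes a zinc finger protein. Eif4e3 encodes a cap-binding protein of the eIF4E family, Sp110 a nuclear body protein, and Spz1 a transcription factor first described in the testis. Arg2 encodes the mitochondrial arginase, Ddit4l an inhibitor of mTOR signalling, and Tmem92 a membrane protein.

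On chromosome 13 lie Tcstv1 (119893388 to 119894785, minus strand), Tcstv3 (120316878 to 120318178, plus strand) and Spz1 (92574636 to 92576172, minus strand) in GRCm38. Zfp352 lies on chromosome 4 (90218820 to 90225702, plus strand), Eif4e3 on chromosome 6 (99625135 to 99666771, minus), Tmem92 on chromosome 11 (94777217 to 94782703, minus) and Sp110 on chromosome 1 (85576899 to 85598817, minus). Arg2 lies on chromosome 12 (79130777 to 79156301, plus) and Ddit4l on chromosome 3 (137621612 to 137628333, plus). Over all 49 embryos, the genes gathered between 844 reads (Spz1) and 17636 reads (Tcstv3).

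Because TBP binds the TATA box, the bases just before the annotated starts are shown for the genes with a promoter in the RefSeq table of GRCm38.p6. This table held 4 of the 9 genes, with 2 starts for Sp110, while Eif4e3, Tcstv1, Tcstv3, Tmem92 and Arg2 were not matched. Capitals mark the letters TATAAGG, searched on both strands after the more common letters TATAAA and TATATA and added once the sequences had been seen. The 100 bases before each start read, 5′ to 3′ on the strand of the gene:
Zfp352, chr4:90218720-90218819, plus strand: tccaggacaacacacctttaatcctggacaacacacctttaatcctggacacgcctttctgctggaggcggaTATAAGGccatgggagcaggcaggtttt
Sp110, upstream start, chr1:85603892-85603991, minus strand: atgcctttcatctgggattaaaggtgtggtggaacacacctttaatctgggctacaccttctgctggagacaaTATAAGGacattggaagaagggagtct
Sp110, downstream start, chr1:85598811-85598910, minus strand: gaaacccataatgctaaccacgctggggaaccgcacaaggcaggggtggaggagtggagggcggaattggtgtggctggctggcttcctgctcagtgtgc
Spz1, chr13:92576233-92576332, minus strand: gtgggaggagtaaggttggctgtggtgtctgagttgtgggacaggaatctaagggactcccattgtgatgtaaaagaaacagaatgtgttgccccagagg
Ddit4l, chr3:137623572-137623671, plus strand: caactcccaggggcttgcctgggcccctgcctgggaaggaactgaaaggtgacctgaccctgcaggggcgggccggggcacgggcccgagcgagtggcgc

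TATAAGG began 28 bases before the start of Zfp352 and 27 bases before the upstream start of Sp110. Over the window from 250 bases before to 50 bases after a start, 2.17% of 32851 RefSeq promoters held these letters on either strand, and 0.329% held them on the strand of the gene between 20 and 40 bases before the start. TATAAA was found in 13.6% of promoters and TATATA in 5.67%, and among these genes only Ddit4l held TATAAA, 35 bases after its start. The 100 bases of Zfp352 and of the upstream Sp110 start matched at 71 of 107 aligned positions and shared a run of 15 bases, aacacacctttaatc, against 50 to 56 matches and runs of 5 to 7 bases between Zfp352 and the other 3 sequences. The upstream Sp110 start lies 5074 bases outside the Sp110 gene model that was used to name reads here, which begins near the downstream start. The start of Ddit4l lies 2060 bases inside its gene model, and that of Spz1 60 bases before it. The start used in these embryos was not measured, and a match or its lack is a description of these letters alone.

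The genes have been called single-copy, but transcript sequences in the annotation went against this for 4 of the 9. With similar genes taken as those matching at least 50% of the longest transcript at 90% identity or more, Tcstv1 and Tcstv3 had 5 each, including one another, and the match between them covered 100% of the Tcstv3 transcript at 92.5% identity. Sp110 had Gm16026, which covered its whole transcript at 97.6% identity, and Zfp352 had Zfp353-ps, which covered 72.5% at 95.2% identity. The other 5 genes had none. Reads from such copies can be divided between them in counting, which may make the values of Tcstv1, Tcstv3, Sp110 and Zfp352 less certain, though this was not measured. In addition, Eif4e3 lies inside Gm20696, a longer gene on the same strand, and Sp110 and Arg2 overlap genes on the opposite strand. The sources used here do not say whether counting took the strand into account.

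Together, the 9 genes made up little of each library, and their median share was higher in TBP LOF embryos than in the other groups. Tcstv3 had the highest median level of the 9 genes in TBP LOF embryos, and the share without it is not given here. In TBP LOF embryos they took from 0.0578% to 0.180% of the reads counted on genes and TE families, with a median of 0.137%, whereas in TBP CONTROL embryos they took from 0.0301% to 0.109%, with a median of 0.0525%. The medians were 0.0703% in FOXJ3 LOF and 0.0731% in FOXJ3 CONTROL embryos. MT2_Mm took a far larger share, from 1.97% to 6.26% in TBP LOF and from 1.62% to 3.53% in TBP CONTROL embryos. In FOXJ3 LOF and CONTROL embryos it took from 1.14% to 3.01% and from 1.33% to 3.89%. These shares are given as a description and were not tested.

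**Figure D1:**
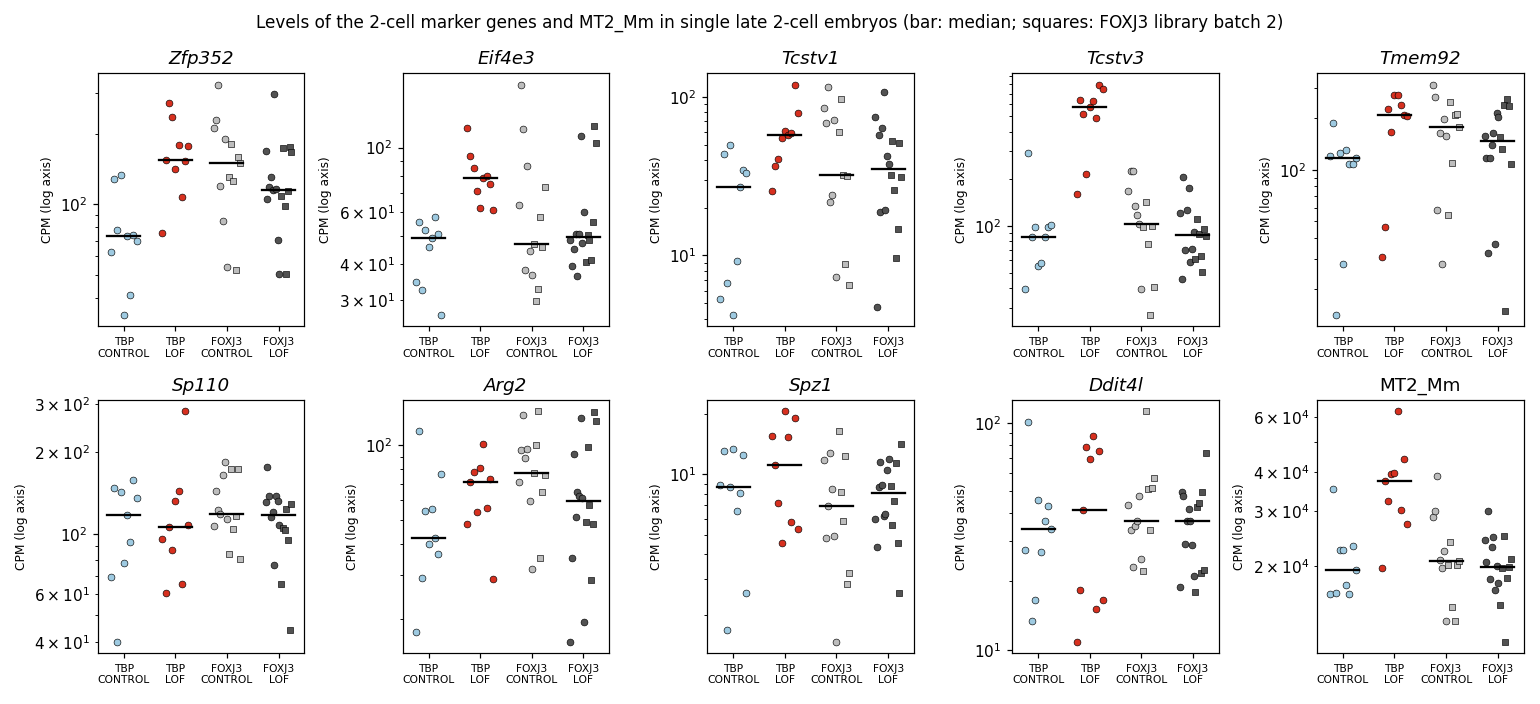
Level of each 2-cell marker gene and of MT2_Mm in every embryo, in CPM (read counts scaled to the same total in each library) on a log axis, by group; the bar is the group median and squares are FOXJ3 libraries of batch 2. For Eif4e3, all 9 TBP LOF embryos lie above all 9 TBP CONTROL embryos, and for Tcstv3 7 of the 9 do.

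Tcstv3 stood out among the genes in TBP LOF embryos. Its level ranged from 159 to 797 CPM in TBP LOF embryos, with a median of 576, and from 39.2 to 293 CPM in TBP CONTROL embryos, with a median of 85.2. Here CPM is the count of a gene scaled to the same total of reads on genes and TE families in each library. All 9 LOF embryos were above the CONTROL median and 7 were above every CONTROL embryo, while 8 of the 9 CONTROL embryos were below every LOF embryo. Scaled to the ERCC spike-ins, RNAs added in the same amount to each lysis tube, the normalised counts of Tcstv3 ranged from 235 to 1423 in TBP LOF and from 74.1 to 634 in TBP CONTROL embryos. On this scale the groups overlapped more, but 7 CONTROL embryos were still below every LOF embryo.

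For Zfp352, TBP LOF embryos held from 75.3 to 270.2 CPM, with a median of 155, and TBP CONTROL embryos from 33.7 to 133 CPM, with a median of 73.3. In CPM, 7 LOF embryos were above every CONTROL embryo, and with ERCC-normalised counts 3 were. For Eif4e3, the levels were from 61.3 to 116 CPM in LOF, median 78.6, and from 26.7 to 58.1 CPM in CONTROL embryos, median 48.8, so that these groups did not overlap. This separation was seen for 65 of 19356 features tested, or 0.336%. The ERCC-normalised counts of Eif4e3 ran from 57.9 to 179 in LOF and from 65.7 to 149 in CONTROL embryos, and on that scale the groups overlapped.

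Tcstv1 ranged from 25.6 to 119 CPM in TBP LOF embryos, with a median of 57.0, and from 4.21 to 49.9 CPM in TBP CONTROL embryos, with a median of 26.9. Here 6 LOF embryos were above all CONTROL embryos in CPM, and 2 were with ERCC-normalised counts. Tmem92 ranged from 31.1 to 274 CPM in LOF, with a median of 209, and from 14.2 to 188 CPM in CONTROL embryos, with a median of 117. Again 6 LOF embryos were above all CONTROL embryos in CPM, but 2 LOF embryos were near the bottom of both groups. With ERCC-normalised counts of Tmem92, 1 LOF embryo was above all CONTROL embryos.

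The other 4 genes overlapped more. Sp110 had a median of 106 CPM (60.6 to 282) in TBP LOF and of 117 CPM (40.1 to 158) in TBP CONTROL embryos, and Arg2 of 71.0 CPM (29.1 to 101) and 42.5 CPM (17.8 to 114). Ddit4l had a median of 41.1 CPM (10.9 to 87.6) in LOF and of 33.9 CPM (13.4 to 101) in CONTROL embryos. Spz1, the least abundant, had a median of 11.2 CPM (4.57 to 20.6) and 8.68 CPM (1.67 to 13.3). For Sp110, 1 LOF embryo was above all CONTROL embryos, for Spz1 4 were (2 with ERCC-normalised counts), and for Arg2 and Ddit4l none was. For MT2_Mm, LOF embryos held from 19708 to 62594 CPM, with a median of 37303, and CONTROL embryos from 16237 to 35349 CPM, with a median of 19369. In CPM, all 9 LOF embryos were above the CONTROL median of MT2_Mm and 5 were above every CONTROL embryo. With ERCC-normalised counts, 4 were above that median and 5 below, 1 was above every CONTROL embryo and 2 were below every one. Apart from the full separation of Eif4e3, the share of all features with such counts of embryos is not given here. These counts of embryos are descriptions alone.

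With ERCC scaling, which the study used for these embryos, 5 of the 9 genes had log2 fold changes above 0 in TBP LOF. Tcstv3 was the only one called higher. Its log2 fold change was 1.77 ± 0.34 (SE, 9 against 9 embryos; 95% interval 1.08 to 2.45; adjusted p = 4.13e-05, edgeR quasi-likelihood test over 19356 genes and TE families). One member in 9 compares with 1.34% of all features called higher, and none of the 9 was called lower, where 29.7% of all features were. The other 8 genes had log2 fold changes between −0.46 (Sp110; adjusted p = 0.300) and 0.66 (Tcstv1; adjusted p = 0.191), with 0.52 for Zfp352 (adjusted p = 0.218) and 0.25 for Eif4e3 (adjusted p = 0.589). The median of the 9 genes was 0.18, beside −0.72 over all features tested. MT2_Mm gave 0.30 ± 0.36 (adjusted p = 0.582), or −0.12 where its subfamily rows were left out (adjusted p = 0.838). With all its rows and 1 embryo left out at a time, it ran from 0.011 (without TBP LOF embryo 8) to 0.43 (without TBP CONTROL embryo 2). The intervals of the genes that did not pass were wide, from −0.10 to 1.14 for Zfp352 and from −1.03 to 0.52 for Ddit4l, for example.

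With TMM scaling, which sets most genes equal between libraries, 5 of the 9 genes were called higher in TBP LOF, beside 12.9% of all features. These were Tcstv3 (2.62 ± 0.35; adjusted p = 3.13e-06), Tcstv1 (1.54 ± 0.37; adjusted p = 0.00249), Zfp352 (1.33 ± 0.27; adjusted p = 0.000449), Tmem92 (1.10 ± 0.36; adjusted p = 0.0234) and Eif4e3 (1.07 ± 0.21; adjusted p = 0.000337), all edgeR log2 fold changes. Sp110, Arg2, Spz1 and Ddit4l did not pass and had values from 0.35 to 0.66, where ERCC scaling had given values below 0. The change of scaling moved the median of all features from −0.72 to 0.11, and that of the 9 genes from 0.18 to 1.07. MT2_Mm was called higher with TMM (1.04 ± 0.29; adjusted p = 0.00787). ERCC reads took from 2.67% to 6.12% of the reads in TBP LOF and from 2.22% to 3.25% in TBP CONTROL embryos.

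When libraries were scaled to their MT2_Mm reads instead, which asks how each gene moved relative to MT2_Mm, Tcstv3 was again the only one of the 9 genes to pass (1.70 ± 0.31; adjusted p = 7.25e-06), where 1.07% of all features were called higher and 34.5% lower. Relative to MT2_Mm, Tmem92 stood at 0.01 ± 0.34 and Eif4e3 at 0.14 ± 0.31. Sp110 stood at −0.65 ± 0.30 (adjusted p = 0.0872) and Ddit4l at −0.60 ± 0.34 (adjusted p = 0.172).

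**Figure D2:**
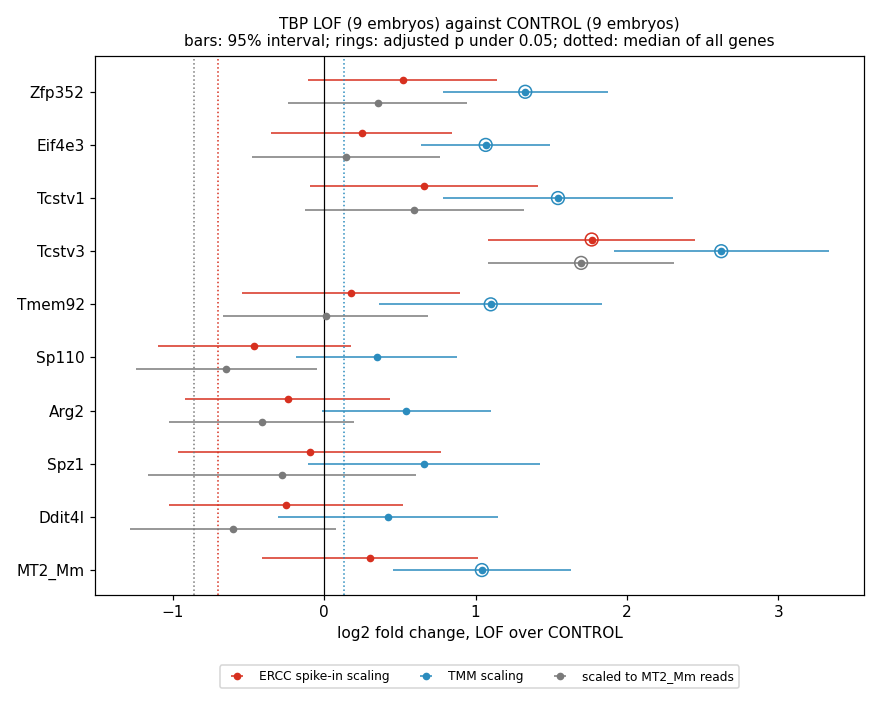
Log2 fold change of each gene and of MT2_Mm in 9 TBP LOF against 9 TBP CONTROL embryos under 3 scalings; bars are 95% intervals, rings mark adjusted p under 0.05, and dotted lines are the median of all genes (−0.70 with ERCC, 0.13 with TMM, −0.86 relative to MT2_Mm). Tcstv3 is ringed under all 3 scalings, and Zfp352, Eif4e3, Tcstv1 and Tmem92 with TMM only.

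Genes that resemble the members in sequence did not all move with them in TBP LOF embryos. With ERCC scaling, 3 of the 4 other genes similar to Tcstv3 were called higher, namely AF067061 (log2 fold change 2.26 ± 0.43; adjusted p = 2.72e-05), Gm20767 (1.33 ± 0.43; adjusted p = 0.0128) and Gm21818 (1.13 ± 0.35; adjusted p = 0.00878), while Gm21761 gave 1.05 ± 0.43 (adjusted p = 0.0566). With ERCC scaling, 1.34% of all features were called higher. With TMM all 4 were called higher, beside 12.9% of all features. In FOXJ3 LOF none was called, where 0% of all features were called higher and 0.0102% lower. As these 4 genes resemble Tcstv3 in sequence, their calls are no separate support for its call. Zfp353-ps, the pseudogene that resembles Zfp352, was called higher (1.71 ± 0.47; adjusted p = 0.00313), with a median of 20.9 CPM in LOF and 4.56 CPM in CONTROL embryos. Gm16026, which resembles Sp110, was called lower (−2.48 ± 0.41; adjusted p = 2.96e-06), also with TMM (−1.56 ± 0.42; adjusted p = 0.00647), with medians of 52.8 and 219 CPM. How far reads pass between such copies was not tested. Gm20696, which contains Eif4e3, gave 0.23 ± 0.30 with ERCC scaling (adjusted p = 0.627) and 1.08 ± 0.22 with TMM (adjusted p = 0.000474), close to the values of Eif4e3, and reads of both genes may be shared.

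In the FOXJ3 experiment, none of the 9 genes was called in either direction. Of 19517 features tested with TMM scaling and a term for batch, 0% were called higher and 0.0102% lower, which is 2 features, while 1112 had an unadjusted p under 0.05 and DESeq2 called 4. The log2 fold changes of the genes lay between −0.27 (Tcstv1 and Arg2) and 0.11 (Spz1), with a median of −0.17 beside −0.03 over all features, and MT2_Mm gave −0.07 ± 0.18 (95% interval −0.43 to 0.29). The interval of Tcstv3 ran from −0.72 to 0.30, that of Sp110, the narrowest of the genes, from −0.47 to 0.18, and that of Tcstv1, the widest, from −1.03 to 0.49.

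In these embryos the levels of the 2 groups overlapped for all 9 genes. The share of all features with such overlap is not given here, so this and the counts below are descriptions alone. Zfp352 ranged from 50.4 to 296 CPM in FOXJ3 LOF embryos, with a median of 116, and from 52.3 to 325 CPM in FOXJ3 CONTROL embryos, with a median of 150. Tcstv3 ranged from 45.5 to 204 CPM, with a median of 86.9, and from 26.9 to 223 CPM, with a median of 103. No LOF embryo was above every CONTROL embryo in CPM for any of the 9 genes. Median levels of Eif4e3 were 49.4 CPM in LOF and 46.9 CPM in CONTROL embryos, of Tcstv1 35.1 and 32.1, of Tmem92 148 and 179, and of Sp110 117 and 118. Those of Arg2 were 59.4 and 77.4 CPM, of Spz1 8.06 and 6.95, and of Ddit4l 36.9 and 37.0. MT2_Mm had medians of 19886 CPM in LOF and 20746 CPM in CONTROL embryos.

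Within batch 1, log2 fold changes of the genes ran from −0.57 (Eif4e3) to 0.19 (Spz1), and within batch 2 from −0.44 (Ddit4l) to 0.49 (Eif4e3). The difference between batches was called for none of the 9 genes, as for 0% of all features in either direction, and 1553 features had an unadjusted p under 0.05. It was largest for Eif4e3 (1.05 ± 0.43; unadjusted p = 0.0199 and adjusted p = 0.595 in edgeR). Batch is part of the fit above.

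**Figure D3:**
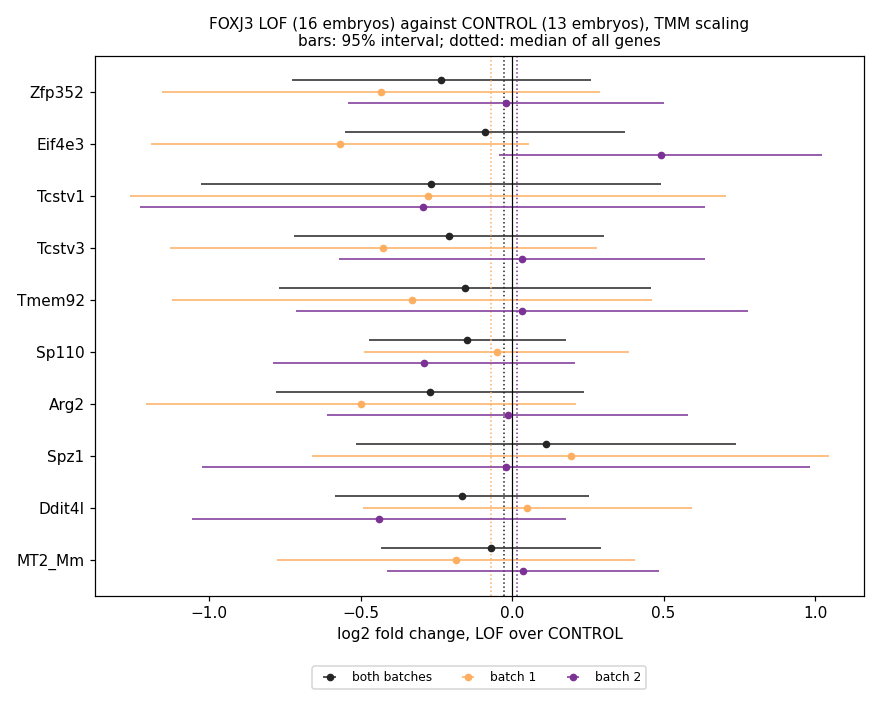
Log2 fold change of each gene and of MT2_Mm in 16 FOXJ3 LOF against 13 FOXJ3 CONTROL embryos with TMM scaling, for both batches together and for each alone; bars are 95% intervals and dotted lines the median of all genes. Every interval of every gene crosses 0.

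The TBP and FOXJ3 effects were then compared directly, in 1 fit over 47 embryos with TMM scaling. The effect of TBP LOF was higher than that of FOXJ3 LOF for 4 of the 9 genes, where 10.6% of 19657 features were higher and 10.9% lower. The difference in log2 fold change was 2.84 ± 0.45 for Tcstv3 (adjusted p = 1.85e-05), 1.83 ± 0.60 for Tcstv1 (adjusted p = 0.0226), 1.58 ± 0.39 for Zfp352 (adjusted p = 0.00300) and 1.17 ± 0.34 for Eif4e3 (adjusted p = 0.00954). For MT2_Mm it was 1.13 ± 0.31 (adjusted p = 0.00605). Tmem92, at 1.28 ± 0.52, did not pass (adjusted p = 0.0693). With ERCC scaling only Tcstv3 passed, with a difference of 1.78 ± 0.50 (adjusted p = 0.00388), and 0.911% of all features were called higher and 28% lower.

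Embryos of 1 group differed widely in these genes, and Tmem92 showed the clearest break, described here after the levels had been seen. Its levels in all 47 embryos left a gap between 57.9 and 108 CPM, with 10 embryos below the gap and 37 above. The 10 low embryos came as 2 LOF and 2 CONTROL embryos of the TBP experiment and 3 of each of the FOXJ3 experiment, so that each group had some. The lowest held 14.2 CPM and the highest 315 CPM. Among the other genes, the widest such gap, with at least 3 embryos on either side, was from 293 to 486 CPM for Tcstv3, and the 7 embryos above it were all TBP LOF. Tcstv1 had 9 embryos below a gap from 9.59 to 14.6 CPM, of which 4 were CONTROL embryos of the TBP experiment and none was TBP LOF, the other 5 being 2 LOF and 3 CONTROL embryos of the FOXJ3 experiment. Tcstv1 was also the most variable of the 9 genes in 3 groups, with a coefficient of variation of 74.8% in TBP CONTROL, 67.0% in FOXJ3 LOF and 75.6% in FOXJ3 CONTROL embryos, while in TBP LOF embryos that was Ddit4l, with 69.0%.

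Some embryos were low or high in most of the genes. TBP LOF embryo 1 was the lowest of its group for 5 of the 9 genes and for MT2_Mm, but the highest for Eif4e3. TBP CONTROL embryo 2 was above the median of its group for all 9 genes, the highest for 4 of them, and the highest for MT2_Mm. FOXJ3 CONTROL embryo 7 of batch 1 was below the median for all 9 genes and the lowest for MT2_Mm.

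Whether the genes follow MT2_Mm from embryo to embryo was asked with each embryo's log2(CPM + 1) taken as a deviation from the mean of its group (and batch), so that the mean effect of LOF does not enter. An effect of LOF that differs between embryos of a group is not removed. Across 29 FOXJ3 embryos, 3 of the 9 genes rose with MT2_Mm by a permutation test within groups, beside 0.21% of 19516 features with a positive relation. Pearson's r was 0.77 for Zfp352 (adjusted p = 0.0195), 0.75 for Tcstv3 (adjusted p = 0.0163) and 0.65 for Tcstv1 (adjusted p = 0.0419), and Spearman's rho was 0.72 (adjusted p = 0.0289), 0.74 (adjusted p = 0.0177) and 0.61 (adjusted p = 0.0878). For the other 6 genes, r ran from 0.00 (Sp110) to 0.44 (Arg2). Within each of the 4 sets of LOF and CONTROL embryos per batch, which hold 6 to 9 embryos each, r was positive for all 3 genes, from 0.49 to 0.96 for Zfp352, from 0.55 to 0.93 for Tcstv3 and from 0.49 to 0.93 for Tcstv1. The 3 genes were picked by their r over these same embryos, so the values within sets are no separate support. The share of all features with positive r in all 4 sets is not given here.

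The calls were lost without the 2 embryos farthest from the median in MT2_Mm, FOXJ3 CONTROL embryo 3 of batch 1 and FOXJ3 LOF embryo 5 of batch 2. In the other 27 embryos no feature at all was called, and r was 0.68 for Zfp352, 0.79 for Tcstv3 and 0.59 for Tcstv1 (permutation test; adjusted p = 0.118, 0.0585 and 0.207). They were also lost without the 2 farthest from the mean of their own group and batch, FOXJ3 CONTROL embryos 3 and 7 of batch 1, with r of 0.67 for Zfp352, 0.67 for Tcstv3 and 0.55 for Tcstv1 (adjusted p = 0.181, 0.177 and 0.357). With ERCC scaling, all 9 genes were called, but so were 28.7% of all features in the positive direction, and the median r of features with a mean of at least 10 reads went from −0.14 to 0.45. MT2_Mm was counted here with its 5 subfamily rows, and with the row named MT2_Mm alone, which holds 144699 reads beside 62827 to 1293347 in the subfamily rows, neither the genes nor any other feature was called, and r was 0.42 for Zfp352, 0.32 for Tcstv3 and 0.38 for Tcstv1.

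Across 18 TBP embryos, none of the 9 genes was called, as was 0% of 19355 features, while 1153 features had an unadjusted p under 0.05 in the permutation test. Pearson's r was 0.79 for Ddit4l, the highest of the genes (rho 0.82; adjusted p = 0.252 for r and 0.223 for rho), 0.67 for Arg2 and 0.62 for Tcstv3. It was 0.49 for Zfp352 and for Sp110, 0.45 for Tmem92 and Tcstv1, 0.40 for Spz1 and 0.02 for Eif4e3. The value for Tmem92 mixes its low and high embryos. The median over the genes was 0.49, beside 0.03 over features with a mean of at least 10 reads, and is a description. Eif4e3 had r = 0.43 in CONTROL and −0.41 in LOF embryos, and this difference was not tested. Without the 2 embryos farthest from the median MT2_Mm level of all 18 (TBP LOF embryos 8 and 10), r was 0.74 for Ddit4l and 0.62 for Tcstv3. Without the 2 farthest from the mean of their own group (TBP LOF embryos 1 and 8), left out after seeing the data, r was 0.71 for Ddit4l, 0.69 for Arg2 and 0.52 for Tcstv3. With the MT2_Mm row alone, r was 0.34 for Ddit4l, 0.44 for Arg2 and 0.14 for Tcstv3, and the median over the genes was 0.18. With ERCC scaling, Arg2 was called (r = 0.83; permutation test, adjusted p = 0.0430), as were 0.0465% of 19355 features, and the other genes were not. The median over the genes was then 0.65, beside 0.38 over features with a mean of at least 10 reads, and r of Eif4e3 was 0.55.

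**Figure D4:**
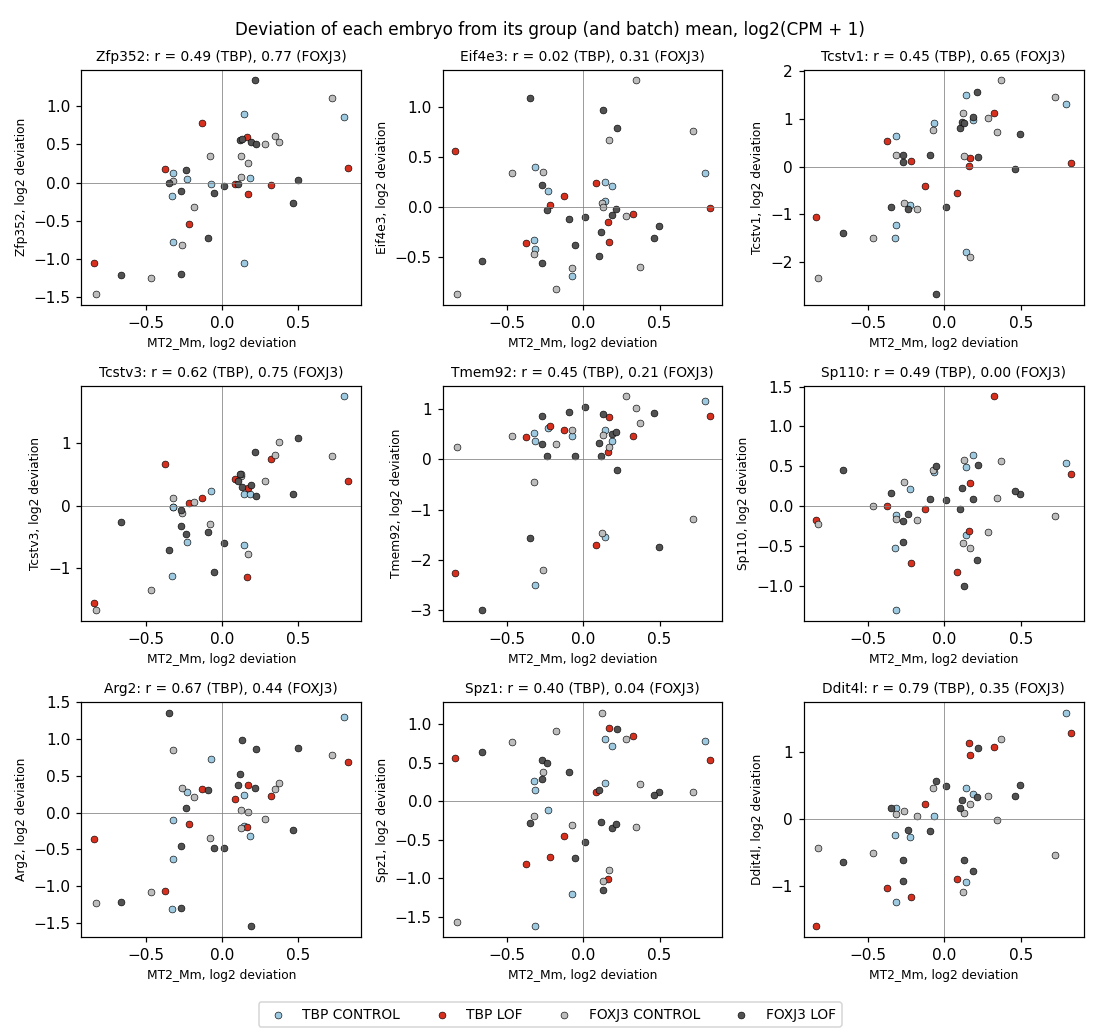
Deviation of each embryo from its group (and batch) mean in log2(CPM + 1) for each gene, against the same for MT2_Mm; points are 47 embryos coloured by group, and r is given for 18 TBP and 29 FOXJ3 embryos. Zfp352, Tcstv1 and Tcstv3 rise with MT2_Mm in FOXJ3 embryos, Ddit4l does most in TBP embryos (r = 0.79), and Tmem92 falls into embryos near 0.5 and a scatter of low ones.

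Pairs of the genes had a higher median r in TBP than in FOXJ3 embryos, a difference that was not tested. In TBP embryos, r between 2 of the genes had a median of 0.39 over 36 pairs, from −0.21 to 0.70 (Tcstv1 with Sp110), and 31 pairs (86.1%) were positive, beside a median of 0.08 and 60.6% positive over all pairs of 9236 features. In FOXJ3 embryos the median was 0.11, from −0.26 to 0.86 (Tcstv1 with Tcstv3), and 22 pairs (61.1%) were positive, close to the median of 0.07 and the 59.4% positive over all pairs of features. Zfp352 went with Tcstv1 and with Tcstv3 at r = 0.66 each in FOXJ3 embryos. The Tcstv1 and Tcstv3 values share similar sequences, and all pairs share library and depth.

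**Figure D5:**
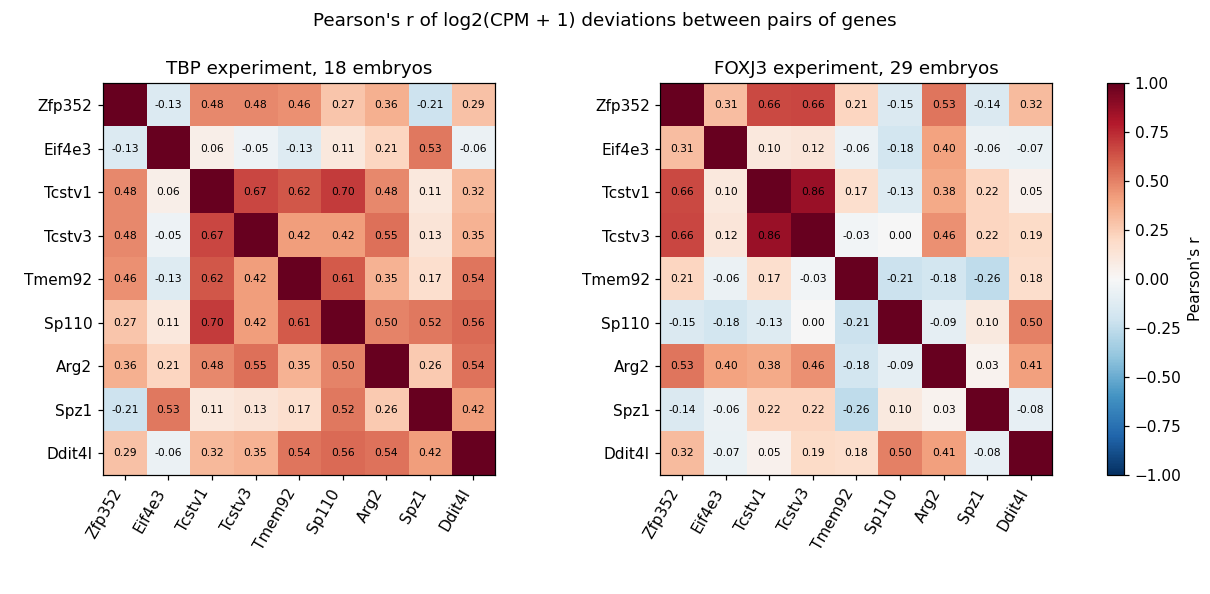
Pearson's r between pairs of the 9 genes, from log2(CPM + 1) deviations of 18 TBP embryos (left) and 29 FOXJ3 embryos (right); red is positive and blue negative. Tcstv1 and Tcstv3 go together in both (0.67 and 0.86), and most Sp110 and Tmem92 pairs are positive in TBP embryos but not in FOXJ3 embryos, a difference that was not tested.

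Over all 47 embryos, the features most like each gene in these deviations were sought among those with at least as many reads. For Zfp352, MT2_Mm itself came first of 869 (r = 0.65), before BC147527 (0.62) and Tcstv3 (0.59). For Tcstv3, MT2_Mm was second of 558 (0.69), between Gm21731 (0.71) and Gm33466 (0.57). For Tcstv1, AF067061 (0.81), B020031M17Rik (0.79) and Tcstv3 (0.79) came first, and MT2_Mm was in place 10 of 2896 (0.57). Tcstv1 has fewer reads than Tcstv3 and so could not be listed for it. MT2_Mm was counted here with its subfamily rows, and its places with the MT2_Mm row alone are not given.

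The other genes had other neighbours. Eif4e3 was most like Spin1 (0.81), Mthfd2 (0.80) and Mtmr14 (0.79), with MT2_Mm in place 516 of 2024 (0.21), and Sp110 like A530040E14Rik (0.66), Slc16a6 (0.65) and Gm29290 (0.62), with MT2_Mm in place 343 of 944 (0.26). Ddit4l was most like Klhl11 (0.74), Zfp599 (0.71) and Gm5117 (0.67), with MT2_Mm in place 42 of 3048, and Arg2 like Dusp14 (0.67), Gtf2b (0.67) and Gm5286 (0.62), with MT2_Mm in place 15 of 1940. Tmem92 had only weak neighbours, Gm33466 (0.46), Mpc2 (0.36) and AF067063 (0.35). Spz1, with the fewest reads, was nearest to Sgms1 (0.62), Antxr1 (0.62) and Ddhd1 (0.56), among 7880 features. These are descriptions over embryos that share library effects.

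Other genes of the 2-cell stage were mixed in TBP LOF embryos. Of 31 named, 29 were tested, and with ERCC scaling 5 were called higher and 0 lower, where 1.34% of all features were called higher and 29.7% lower. Their median log2 fold change was 0.26 beside −0.72 over all features, with 21 values above 0 and 8 below. Among those called were Gm4340 (2.56 ± 0.67; adjusted p = 0.00189), Gm5662 (1.86 ± 0.42; adjusted p = 0.000344), Gm8300 (1.78 ± 0.47; adjusted p = 0.00229) and Usp17lc (1.38 ± 0.40; adjusted p = 0.00515). Also called was Gm20767, which, like Gm21761 in the same list, resembles Tcstv3 and was already counted above. Values below 0 included those of Tdpoz2 (−1.25 ± 0.76; adjusted p = 0.223) and Zscan4c (−1.24 ± 0.59; adjusted p = 0.104), which did not pass. With TMM 10 of the 29 were called higher, beside 12.9% of all features, and Zscan4c was again below 0 (−0.62 ± 0.59; adjusted p = 0.466). In FOXJ3 LOF embryos none of 30 was called, with a median of −0.44 beside −0.03. The lowest of these was Zscan4c (−1.19 ± 0.44; adjusted p = 0.784).

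Transcripts that the oocyte leaves to the embryo were measured beside these genes. The 11 oocyte and maternal genes summed to between 2319 and 4166 CPM in TBP LOF and between 1032 and 2902 CPM in TBP CONTROL embryos. With TMM, 7 of the 11 were called higher in TBP LOF and 1 lower, beside 12.9% and 12.7% of all features. Those called higher included Bmp15 (1.46 ± 0.22; adjusted p = 1.46e-05), a growth factor of the oocyte. With ERCC scaling none was called higher and Zp3, a protein of the egg coat, was called lower (−1.83 ± 0.34; adjusted p = 2.29e-05). Their part in the result for the 2-cell genes was not tested. The median of the 11 was a log2 fold change of 0.08 beside −0.72 over all features with ERCC scaling, and 0.89 beside 0.11 with TMM. In FOXJ3 embryos none of the 11 was called.

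Markers of other cells were scarce. The 11 genes of cumulus cells summed to at most 25.8 CPM in any embryo, Inhba and Fshr had no reads in any, and of the 2 that could be tested Tnfaip6 was called lower in TBP LOF with ERCC scaling (−2.46 ± 0.75; adjusted p = 0.00865), as were 29.7% of all features, but not with TMM (−1.68 ± 0.76; adjusted p = 0.101). The 8 genes of the blastocyst lineages summed to between 0.460 and 45.7 CPM, and none of 6 tested was called in either experiment. The injected mCherry-Trim21 transcript had a median of 1390 CPM in TBP LOF and of 770 CPM in TBP CONTROL embryos, and of 351 CPM in FOXJ3 LOF and 839 CPM in FOXJ3 CONTROL embryos. With this level as a covariate in the FOXJ3 fit, none of the 9 genes was called, as without it, and their median log2 fold change was −0.03 instead of −0.17. Its part in the TBP results was not tested.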

How the data were processed

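Single-embryo Smart-seq+5′ libraries were sequenced by the authors, who mapped 5′-end reads with STAR 2.7.11a to GRCm38 with the injected construct added, and counted genes and TE families with TEcount. The deposited tables hold raw read counts for genes and, for TE families, estimated counts that are whole numbers. Subfamily rows (42) were added to their 6 families. Symbols came from GENCODE M21, which held 54723 of 54838 gene IDs (the authors used M20).

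Embryos were kept with at least 500000 reads, 1000 genes, and at most 10% mitochondrial and 15% ERCC reads, as in the study. Groups follow the labels, which give 9 TBP LOF and 10 TBP CONTROL embryos, where the methods give these numbers the other way round. Features with a read in at least 25% of embryos entered two-sided quasi-likelihood tests in edgeR 4.0.16 with Benjamini-Hochberg adjustment over all features (threshold 0.05). TBP embryos were scaled by 42 ERCC RNAs (median of ratios), FOXJ3 embryos by TMM with batch as a term. Relations to MT2_Mm were tested with 100000 permutations of embryos within groups. Similar genes were found with blastn 2.17.0. Embryos count as replicates, so p-values measure the spread between embryos of 1 group. They come from at least 3 independent experiments, for which no fit or permutation has a term. A difference between experiments is therefore not removed from p-values or from relations to MT2_Mm. The members and lists were chosen with earlier results of these data known. Named genes were the members, their 3 nearest features, and up to 4 genes of each list by smallest adjusted p. Genes similar to or overlapping a member were named for that, Tdpoz2 for the lowest log2 fold change of its list, and Inhba and Fshr for having no reads. Replicate numbers did not pair embryos. Alternatives were TMM, ERCC, median-of-ratios and MT2_Mm scaling, DESeq2 1.42.0, other filters, all embryos, each batch alone, a replicate block and leaving out each embryo. In simulated data with the depth of these libraries, a log2 change of 1 was recovered for 18% of 100 genes in the TBP comparison (18773 features) and 47% in the FOXJ3 comparison (19032 features), and a change of 2 for 86% and 96%. Only 100 genes of each size were changed, whereas 29.7% of features were called lower in the TBP data. The adjustment was therefore stricter in the simulation, and its recovery can be too low for the TBP data. Tables of single TE insertions gave the same gene rows and were not used further.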

Additional observations from a re-analysis of the deposited data

Results flagged for a closer look

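In the TBP groups of 9 embryos, the 9 genes and MT2_Mm were searched for a single embryo far from the rest, by the gap to the nearest embryo as a share of the range (limit 0.493). Of 20 sets searched, 4 were past the limit, where chance gives about 1 in 20 for independent, normally distributed values, which these levels were not shown to be. TBP CONTROL embryo 2 was the highest for 3 of them. It held 293 CPM of Tcstv3, with the next CONTROL embryo at 102 CPM (share 0.753), 101 CPM of Ddit4l, with the next at 45.6 CPM (0.631), and 35349 CPM of MT2_Mm, with the next at 23139 CPM (0.639). TBP LOF embryo 10 held 282 CPM of Sp110, with the next LOF embryo at 143 CPM (0.628).

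Without TBP CONTROL embryo 2, the log2 fold change of Tcstv3 in TBP LOF was 2.14, against 1.77 with it. TBP CONTROL embryo 2 had 1644741 reads, 2.82% ERCC and 5.64% mitochondrial reads, within the range of its group. The FOXJ3 groups hold more than 10 embryos each and were not searched.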

How the results depend on the processing

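Tcstv3 was called higher in TBP LOF under all 29 alternatives, with adjusted p between 4.81e-09 and 0.000567. Among these, 18 left out 1 embryo each, and there its log2 fold change ran from 1.61 to 2.14. The gene rows of the insertion tables and the MT2_Mm row alone leave the counts of Tcstv3 as they were, so they could not change its call. Of the 9 genes, 5 were called higher in TBP LOF with TMM and 5 with median-of-ratios scaling (beside 12.9% and 13.4% of all features), against 1 with ERCC (1.34%), and 1 whichever embryo was left out. In simulated data a log2 change of 1 was recovered for 18% of genes in the TBP and 47% in the FOXJ3 comparison, and smaller changes were not simulated. Few features were changed in the simulation, so its recovery can be too low for the TBP data.

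Same-numbered embryos did not vary together (7 TBP pairs, r from −0.08 to 0.15; 12 FOXJ3 pairs, r from −0.25 to 0.24; 0 of the TBP embryos and 4 of the FOXJ3 embryos correlated best with their own number), so the numbers do not pair them. With a replicate block 3 of the 9 genes were called in TBP LOF (Zfp352 0.80, Tcstv1 1.07 and Tcstv3), against 1 in the same 14 embryos without it, where 1.43% and 1.65% of all features were called higher, and over all features the block moved the count of calls by less than 1.5 times. The block gave −0.053 for Tmem92 and 0.0027 for Arg2 in TBP LOF, and −0.019 for Spz1 in FOXJ3 LOF (−0.079 in the same embryos without it).

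Some values changed sign. With TMM and median-of-ratios scaling, TBP LOF gave 0.35 and 0.37 for Sp110, 0.54 and 0.56 for Arg2, 0.66 and 0.69 for Spz1, and 0.42 and 0.43 for Ddit4l. With the MT2_Mm row alone, MT2_Mm gave −0.12. With 1 embryo left out, TBP LOF values ran from −0.080 to 0.33 for Tmem92, from −0.27 to 0.037 for Spz1 and from −0.60 to 0.069 for Ddit4l, and FOXJ3 LOF values from −0.21 to 0.10 for Eif4e3, from −0.0062 to 0.28 for Spz1 and from −0.15 to 0.047 for MT2_Mm. Other FOXJ3 LOF values that changed sign were Eif4e3 with ERCC scaling (0.13), scaling to MT2_Mm (0.066) and batch 2 alone (0.49), MT2_Mm with ERCC scaling (0.091), all embryos (0.056), batch 2 alone (0.036) and the mCherry-Trim21 level as covariate (0.019), and Tcstv3 with batch 2 alone (0.033) and that covariate (0.016). So did Tmem92 (0.033) and Spz1 (−0.020) with batch 2 alone, Ddit4l with batch 1 alone (0.051) and that covariate (0.21), and Arg2 with that covariate (0.071).

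None of the 9 genes was called in FOXJ3 LOF under any alternative. The 2 features called there in all became 0 with MT2_Mm scaling, with the replicate block and in the same embryos without it, in batch 1 alone and with the covariate, 1 with edgeR's filterByExpr and in batch 2 alone, 3 with no batch term, 4 with DESeq2 and 4 without a filter on low counts, and 1 to 4 with 1 embryo left out. With ERCC scaling, the difference of the effects was called for 1 of the 9 genes, with −0.43 for Sp110, −0.14 for Arg2, −0.41 for Spz1 and −0.17 for Ddit4l. On that scale the relation to MT2_Mm was called for 1 gene in TBP embryos (Arg2), beside 0.0465% of all features. In FOXJ3 embryos it was called for 9 genes, beside 28.7% of all features in the positive direction. The FOXJ3 relation was called for 0 genes without the 2 embryos farthest in MT2_Mm, for 0 without the 2 farthest from their group mean (where r was −0.034 for Sp110 and −0.25 for Spz1), and for 0 with the MT2_Mm row alone. That row, chosen after seeing the data, gave r of −0.17 for Tcstv1, −0.11 for Tmem92 and −0.17 for Sp110 in TBP embryos, and −0.19 for Eif4e3, −0.25 for Sp110 and −0.083 for Spz1 in FOXJ3 embryos, where rho of Spz1 was −0.11. The causes of these shifts were not tested.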
